A study of Mus musculus with 8 samples.

Results

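The 10 genes described here are markers and regulators of conventional dendritic cells, measured by RNA sequencing in whole mouse stomachs. The mice were females of the inbred strain C57BL/6J and wild type. The genes were taken by symbol from the deposited table and are Itgax, Flt3, Zbtb46, Irf8, Batf3, Xcr1, Clec9a, Irf4, Cd209a and Ccr7. All 10 were among its 24507 rows and among the 16889 genes tested. The study compared 4 stomach samples collected 3 days after adrenalectomy, the surgical removal of the adrenal glands, with 4 collected 3 days after a sham operation. Both groups had surgery and share strain, sex and genotype. Adrenalectomy removes the source of glucocorticoids, aldosterone and adrenaline together, so the groups do not separate these hormones. Whether each sample came from 1 separate animal is not stated, so a p-value here reflects sample-to-sample spread, which may be technical.

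Conventional dendritic cells sample antigen in tissues and present it to T cells. They grow from marrow precursors under the cytokine Flt3 ligand and form 2 main types. Type 1 cells depend on the transcription factors Irf8 and Batf3 and cross-present antigen to CD8 T cells, and type 2 cells depend in part on Irf4 and mainly present antigen to CD4 T cells. In the gut wall they lie beside many more macrophages, which share several of their surface proteins.

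The values are log2 normalized expression as deposited, called log2 values below, and a log2 difference is adrenalectomy minus sham. The transformation that gave them is not named, so linear values and ratios below are powers of 2 of the deposited values and may differ from normalized counts, most at low values. Stomach markers were abundant, with Pgc, the pepsinogen of chief cells, at 23.31 ± 0.29 and Atp4a, a proton pump subunit of parietal cells, at 19.62 ± 0.12 in sham samples (log2 values, SD, n = 4). The dendritic cell genes lay far lower, with sham means from 4.43 for Ccr7 to 9.41 for Irf8. Spread and differences were smaller for genes of low value on the deposited scale: the median SD within groups was 0.0385 among 1754 genes averaging 4 to 6, where 6 of the members lay, and 0.0814 among 3172 genes averaging 8 to 10. Other tissue in the samples varied. Skeletal muscle genes had mean log2 values of 9.17 to 9.20 in sham replicates 2 and 3 and 6.95 to 7.28 in the other 6 samples, liver genes stood highest in adrenalectomy replicate 1 (14.50 against 8.94 to 11.70 in the others), and squamous epithelial genes ranged from 10.72 in adrenalectomy replicate 3 to 13.17 in sham replicate 3. Of 9 glucocorticoid-induced genes listed, Per1, Klf9, Pdk4, Cebpd and Fkbp5 fell and none rose.

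None of the 10 dendritic cell genes passed the test, limma with an adjusted p under 0.05, against 1.71% of all tested genes (289 genes, 0.93% higher and 0.782% lower). With each sample centred on its median, the 289 calls became 156 and the split of 157 higher and 132 lower became 69 and 87. At an unadjusted p under 0.05 stood 3 members, Itgax, Irf8 and Xcr1, beside 19.2% of all tested genes. The mean was higher after adrenalectomy in 8 of the 10, against 49.5% of all tested genes, and the median log2 difference was 0.05 against -0.00088. The groups did not overlap for 1 member, Itgax, against 12.4% of all tested genes, or 6.3% counting those higher after adrenalectomy. Calls were rare at low values: 0.342% of the genes averaging 4 to 6 were called, against 1.25% at 6 to 8 and 1.51% at 8 to 10. In whole stomach, fewer cells of a type and less RNA per cell cannot be told apart.

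**Figure D1:**
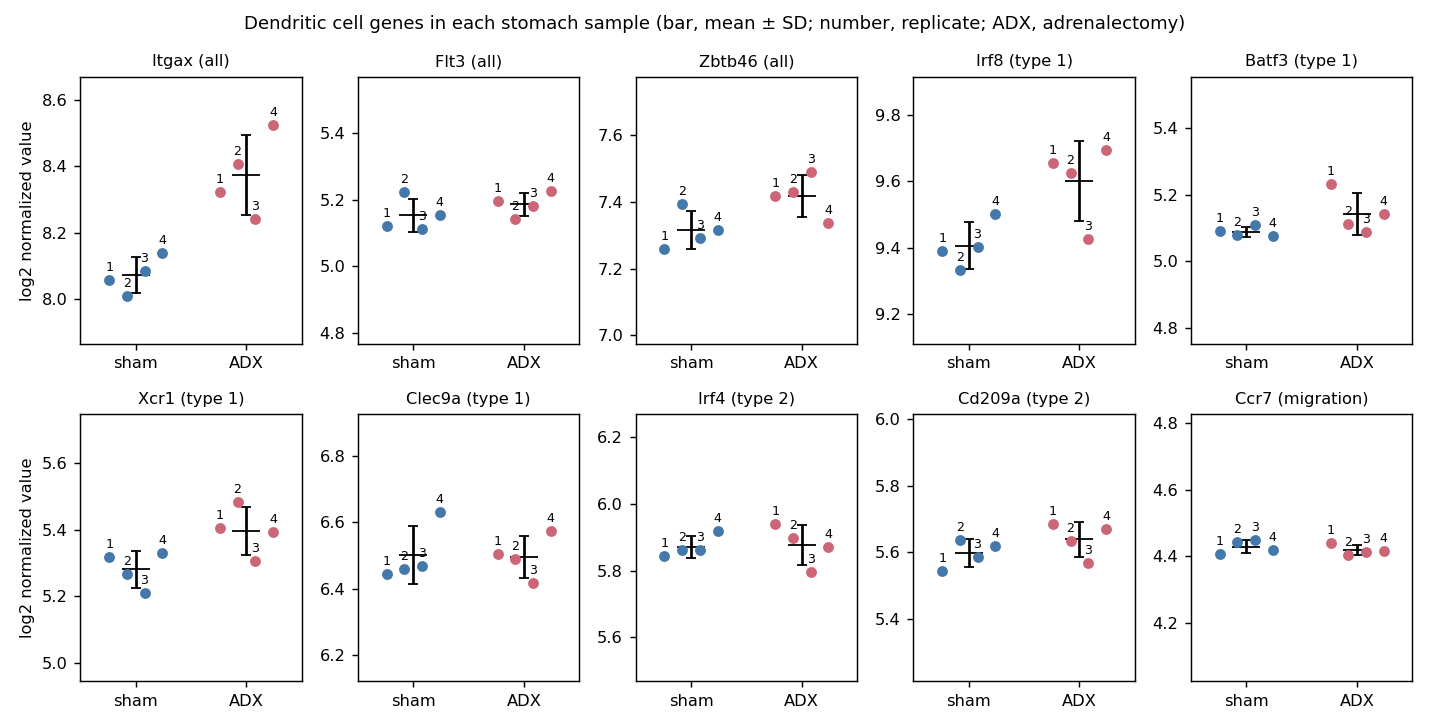
Log2 normalized values (vertical axes, each spanning 0.8) of the 10 dendritic cell genes in 4 sham and 4 adrenalectomy (ADX) samples, with the mean and SD as a bar and the replicate number beside each point. Itgax separates the groups, and the other 9 genes overlap.

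Of the 3 genes that mark conventional dendritic cells of both types, Itgax had the largest difference. It encodes CD11c, an integrin chain that binds complement fragments and is also carried by many macrophages of mucosal tissue. Itgax stood at 8.06, 8.01, 8.09 and 8.14 in sham replicates 1 to 4 and at 8.32, 8.41, 8.24 and 8.52 in adrenalectomy replicates 1 to 4. Every adrenalectomy sample was above every sham sample, with a gap of 0.10 between the groups. The log2 difference was 0.30 ± 0.06 SE (95% interval 0.15 to 0.45), a ratio of 1.23 on the back-transformed scale, and ranked 419 of 16889 by p (limma, adjusted p = 0.0611). Over 20 alternative settings the adjusted p of Itgax ran from 0.0461 to 0.421. It passed with robust moderation (adjusted p = 0.0493) and with sample quality weights (adjusted p = 0.0461), so the outcome of the test of Itgax turned on those choices, while the log2 difference kept between 0.25 and 0.34.

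Flt3, the receptor tyrosine kinase that receives the growth signal, stood at 5.12, 5.22, 5.11 and 5.15 in sham samples and at 5.20, 5.14, 5.18 and 5.22 after adrenalectomy. The groups overlapped, and the log2 difference was 0.03 (95% interval -0.04 to 0.10, limma adjusted p = 0.562). Its ligand gene Flt3l differed by 0.05 (limma adjusted p = 0.536). Zbtb46, a repressor found in conventional dendritic cells and their committed precursors, and also in endothelium, stood at 7.26, 7.39, 7.29 and 7.32 in sham samples and at 7.42, 7.43, 7.49 and 7.34 after adrenalectomy. Of the 4 adrenalectomy samples, 3 were above the highest sham sample, and the log2 difference was 0.10 (95% interval -0.0027 to 0.21, limma adjusted p = 0.271).

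Promoter windows of 300 bases, from 250 before to 50 after the transcription start, were available for 9 of the 10 members in RefSeq on GRCm38.p6, a later build than the authors' mm9. Those of Itgax, Irf8, Zbtb46 and Cd209a are shown: the pair of members with the largest differences, the other lineage marker with a motif, and the 1 member with an ETS-IRF composite element, the paired site at which PU.1 binds together with Irf4 or Irf8. Capitals mark every match to 5 motifs, searched on both strands.
Itgax: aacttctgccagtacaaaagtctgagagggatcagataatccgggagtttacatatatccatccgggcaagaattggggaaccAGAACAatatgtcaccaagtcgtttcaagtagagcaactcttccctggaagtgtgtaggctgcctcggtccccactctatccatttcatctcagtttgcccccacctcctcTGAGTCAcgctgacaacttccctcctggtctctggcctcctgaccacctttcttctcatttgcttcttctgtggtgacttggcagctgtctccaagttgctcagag
Irf8: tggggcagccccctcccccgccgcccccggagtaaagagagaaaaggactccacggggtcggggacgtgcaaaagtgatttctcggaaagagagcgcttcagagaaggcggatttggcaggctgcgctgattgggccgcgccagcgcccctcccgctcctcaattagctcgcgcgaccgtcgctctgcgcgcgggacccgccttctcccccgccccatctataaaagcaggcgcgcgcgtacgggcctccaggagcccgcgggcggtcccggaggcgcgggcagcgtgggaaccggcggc
Zbtb46: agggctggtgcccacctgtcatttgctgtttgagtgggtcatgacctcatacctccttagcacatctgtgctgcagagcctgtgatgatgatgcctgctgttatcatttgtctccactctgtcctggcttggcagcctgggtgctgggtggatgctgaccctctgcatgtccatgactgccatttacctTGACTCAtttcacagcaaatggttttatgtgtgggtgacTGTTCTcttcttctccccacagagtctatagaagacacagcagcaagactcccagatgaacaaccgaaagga
Cd209a: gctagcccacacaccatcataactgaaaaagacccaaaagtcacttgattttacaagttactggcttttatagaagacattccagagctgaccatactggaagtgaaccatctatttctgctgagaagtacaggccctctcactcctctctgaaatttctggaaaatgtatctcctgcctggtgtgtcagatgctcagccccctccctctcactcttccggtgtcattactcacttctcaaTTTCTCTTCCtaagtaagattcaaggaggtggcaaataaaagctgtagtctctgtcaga
The windows lie at chr7:128129300-128129599 on the plus strand for Itgax, chr8:120736108-120736407 on the plus strand for Irf8 (the upstream one of a pair of starts), chr2:181424339-181424638 on the minus strand for Zbtb46 and chr8:3748935-3749234 on the minus strand for Cd209a, and are written in the direction of the gene. The ETS-IRF composite element, GGAANNGAAA, was in 1 of the 10 member windows (Cd209a, on the opposite strand) and in 2.72% of all 32851 windows. The interferon response core GAAANNGAAA and the PU.1 box GAGGAAGT were in none of the member windows and in 3.44% and 3.20% of all. The AP-1 site TGANTCA, which reads the same on both strands apart from its middle base, was in Itgax and Zbtb46 and in 7.81% of all windows. The sequence AGAACA, 1 arm of the glucocorticoid response element, was in these windows too, in Zbtb46 on the opposite strand, and in 19.0% of all. No match overlapped another in the 4 windows shown. A match is a run of letters and not a measured binding site.

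Among the type 1 genes, Irf8, which sets the fate of these cells and is also used by macrophages and B cells, stood at 9.39, 9.33, 9.40 and 9.501 in sham samples and at 9.66, 9.63, 9.43 and 9.69 after adrenalectomy. Adrenalectomy replicate 3 fell inside the sham range and the other 3 were above it. The log2 difference was 0.19 ± 0.07 SE (95% interval 0.04 to 0.34, limma adjusted p = 0.169). Batf3, the AP-1 family partner that maintains Irf8 in type 1 cells, stood at 5.09, 5.08, 5.11 and 5.07 in sham samples and at 5.23, 5.11, 5.09 and 5.14 after adrenalectomy. Its highest value was in adrenalectomy replicate 1, in which liver genes were highest. The log2 difference was 0.06 (95% interval -0.02 to 0.13, limma adjusted p = 0.373) and 0.03 without that sample.

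Xcr1, the chemokine receptor that marks type 1 cells and senses the lymphocyte chemokine Xcl1, stood at 5.32, 5.27, 5.21 and 5.33 in sham samples and at 5.41, 5.48, 5.31 and 5.39 after adrenalectomy. Adrenalectomy replicate 3 again lay in the sham range. The log2 difference was 0.12 ± 0.04 SE (95% interval 0.02 to 0.21, limma adjusted p = 0.197), the largest among the 6 members of the lowest level. Xcl1 itself was near the filter on low values (a mean linear value of 10), with a sham mean of 3.66, and differed by 0.04 (limma adjusted p = 0.201). Clec9a, a lectin receptor for exposed actin filaments of dead cells, stood at 6.44, 6.46, 6.47 and 6.63 in sham samples and at 6.51, 6.49, 6.42 and 6.57 after adrenalectomy. Its highest value was in sham replicate 4, and the log2 difference was -0.0042 (95% interval -0.12 to 0.11, limma adjusted p = 0.974), or 0.04 without sham replicate 4. Of the 4 type 1 genes, Irf8, Xcr1 and Batf3 were each above all sham samples in 3 of 4 adrenalectomy samples, and Clec9a in 0 of 4.

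Among the type 2 genes, Irf4, the factor that type 2 cells use for migration and antigen presentation and that plasma cells and activated lymphocytes also express, stood at 5.84, 5.86, 5.86 and 5.92 in sham samples and at 5.94, 5.90, 5.80 and 5.87 after adrenalectomy. The adrenalectomy samples held both the highest and the lowest value, and the log2 difference was 0.0052 (95% interval -0.08 to 0.09, limma adjusted p = 0.948), with a sign that changed in 6 of 19 alternatives. Cd209a, which encodes the lectin DC-SIGN of mouse type 2 and monocyte-derived cells, stood at 5.54, 5.64, 5.59 and 5.62 in sham samples and at 5.68, 5.63, 5.57 and 5.67 after adrenalectomy. The log2 difference was 0.04 (95% interval -0.04 to 0.12, limma adjusted p = 0.519). Cd209a belongs to a cluster of close paralogs, so the division of reads among them is uncertain.

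Ccr7, the receptor that guides mature dendritic cells and naive T cells along Ccl19 and Ccl21 into lymphatics and lymph nodes, was the lowest of the 10, at 4.41, 4.44, 4.45 and 4.42 in sham samples and 4.44, 4.40, 4.41 and 4.42 after adrenalectomy. Its values spanned less than those of any other member, and the log2 difference was -0.01 (95% interval -0.05 to 0.02, limma adjusted p = 0.732). The ligand gene Ccl19 stood at 5.06 ± 0.05 in sham samples and 5.06 ± 0.05 after adrenalectomy (log2 values, SD, n = 4), and Ccl21a, Ccl21b and Ccl21c were listed at 0 in every sample. How reads shared among close paralogs were counted is not given, so these zeros do not show that the Ccl21 genes were silent.

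**Figure D2:**
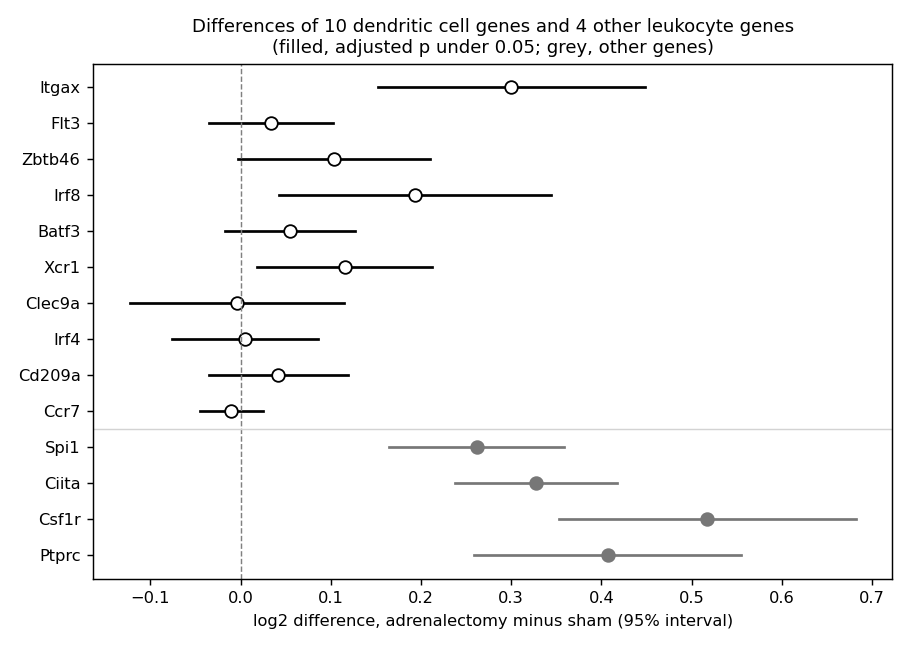
Log2 differences (horizontal axis, adrenalectomy minus sham) with 95% intervals from limma for the 10 dendritic cell genes (black) and 4 other leukocyte genes (grey), filled where the adjusted p was under 0.05. The intervals of Itgax, Irf8 and Xcr1 lie above 0, no member is filled, and Spi1, Ciita, Csf1r and Ptprc are filled.

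Adrenalectomy replicate 3 was the lowest of its group for 7 of the 10 genes, and adrenalectomy replicates 1 and 4 were the highest for 4 each. Sham replicate 4 was the highest of its group for 5. Adrenalectomy replicate 3 also had the lowest mean log2 value of the leukocyte-wide genes in its group (9.52 against 9.62 to 9.67) and of the squamous genes, and its part in the members' values was not tested.

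Levels of different genes were set side by side as back-transformed values per kilobase of merged exon (GENCODE M21), an approximate scale since the deposited transformation is not named. Irf8 was the most abundant member in sham samples at 96.3 ± 4.7, followed by Itgax at 56.1 ± 2.1, Cd209a at 30.6 ± 0.88, Clec9a at 27.5 ± 1.7, Batf3 at 21.3 ± 0.23, Zbtb46 at 18.7 ± 0.75, Irf4 at 11.9 ± 0.28, Ccr7 at 10.9 ± 0.15, Xcr1 at 8.74 ± 0.33 and Flt3 at 5.76 ± 0.20 (back-transformed value per kilobase, SD, n = 4). The order was the same after adrenalectomy. Only Cd209a and Clec9a overlapped among neighbours in sham samples, and no neighbours did after adrenalectomy, where Irf8 reached 110 ± 8.8 and Itgax 69.3 ± 5.8 (back-transformed value per kilobase, SD, n = 4). The authors' annotation is not given and may differ from the one used for the lengths. Such a mismatch would shift each gene by its own factor, the same in both groups, and could change the order of genes. The SDs and overlaps do not include it.

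**Figure D3:**
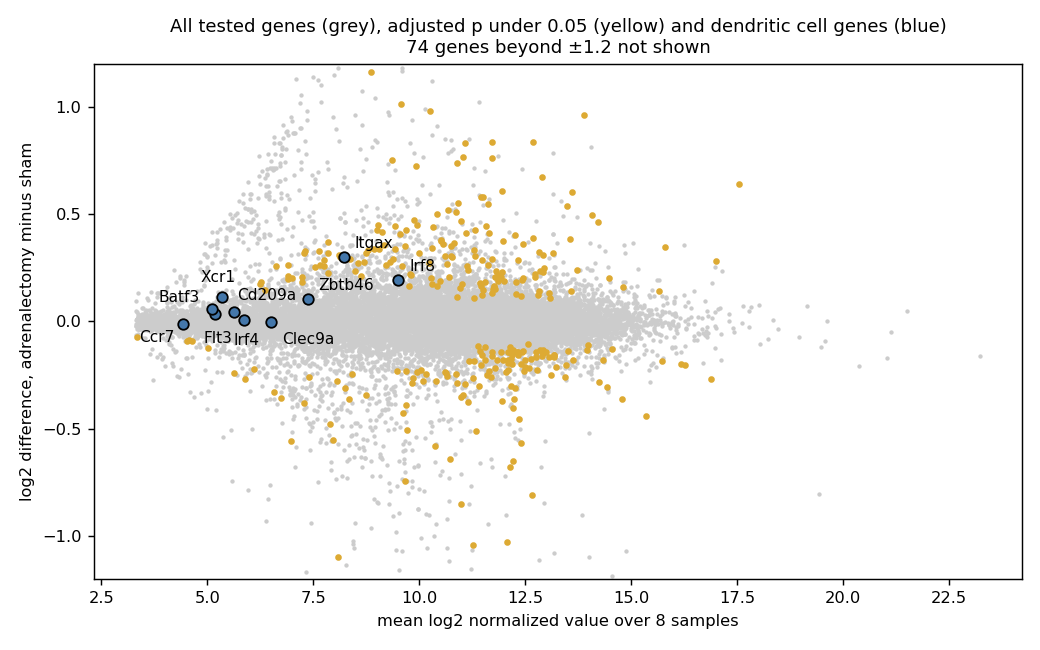
Log2 difference (vertical axis, adrenalectomy minus sham) against the mean log2 normalized value over 8 samples (horizontal axis) for the tested genes, with the 289 called genes in yellow and the 10 dendritic cell genes in blue. Itgax (0.30) and Irf8 (0.19) lie highest of the 10, Ccr7, Irf4 and Clec9a lie near 0, and 74 genes beyond the vertical axis are not shown.

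Type 1 and type 2 were set side by side within each sample, as the difference of 2 log2 values. Irf8 minus Irf4 was 3.55, 3.47, 3.54 and 3.58 in sham samples and 3.72, 3.73, 3.63 and 3.82 after adrenalectomy, so every adrenalectomy sample was higher. Xcr1 minus Cd209a was -0.22, -0.37, -0.38 and -0.29 in sham samples and -0.28, -0.15, -0.26 and -0.28 after adrenalectomy, and the groups overlapped. Clec9a minus Cd209a was 0.90, 0.82, 0.88 and 1.01 in sham samples and 0.82, 0.86, 0.85 and 0.90 after adrenalectomy, with a lower mean after adrenalectomy. Irf8 and Irf4 lie at different levels, where the size of differences on the deposited scale is unequal, and these differences were not tested.

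**Figure D4:**
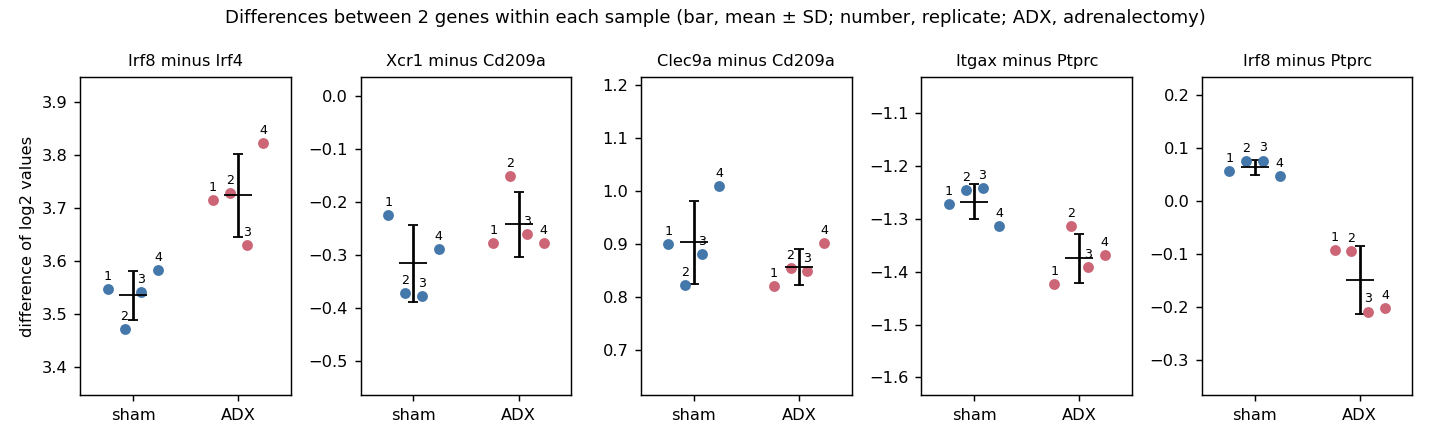
Difference of the log2 values of 2 genes in each sample (vertical axes, each spanning 0.6), for 4 sham and 4 adrenalectomy (ADX) samples, with mean and SD as a bar and the replicate number beside each point. Irf8 minus Irf4 is higher in every adrenalectomy sample, Itgax minus Ptprc and Irf8 minus Ptprc are lower in every one, and the receptor pairs overlap. The rise of Ptprc itself enters the differences from Ptprc.

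Markers of other leukocytes lay beside the dendritic cell genes in these samples. Of 10 leukocyte-wide genes, 6 rose and none fell, with a median log2 difference of 0.32. Ptprc, which encodes CD45, the phosphatase on all white blood cells, went from 9.34 ± 0.08 to 9.75 ± 0.11 (log2 values, SD, n = 4), a rise of 0.41 ± 0.06 SE (limma adjusted p = 0.0314). Laptm5, a lysosomal protein of blood cells, rose by 0.51 and Coro1a, an actin regulator, by 0.42 (limma adjusted p = 0.0174 and 0.0175). Ptprc lost its call in 12 of 20 alternatives, among them leaving out any 1 sample but sham replicate 1. Itgax minus Ptprc was -1.27, -1.246, -1.24 and -1.31 in sham samples and -1.42, -1.31, -1.39 and -1.37 after adrenalectomy. The mean was lower after adrenalectomy by 0.11, and by a narrow margin the groups did not overlap. Irf8 minus Ptprc went from 0.06 ± 0.01 to -0.15 ± 0.06 (log2 values, SD, n = 4), and Zbtb46 minus Ptprc from -2.03 ± 0.12 to -2.33 ± 0.17, both lower in every adrenalectomy sample. For Zbtb46 the margin was narrow, with -2.1385 in sham replicate 4 and -2.1447 in adrenalectomy replicate 3. Ptprc rose by more than any member, so the mean of any member minus Ptprc is lower after adrenalectomy. The genes also lie at different levels on the deposited scale, and these differences were not tested.

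Of 22 monocyte and macrophage markers, 6 rose and none fell, with a median log2 difference of 0.21. Their summed linear values ran from 14885 to 15409 in sham samples and from 17550 to 20100 after adrenalectomy, and none of them was at 0. Csf1r, the growth factor receptor of macrophages, rose by 0.52 ± 0.07 SE (limma adjusted p = 0.0223), and Adgre1, C1qa, C1qb, C1qc and the signalling adaptor gene Tyrobp also rose, by 0.33 to 0.38. Of the 22 markers, 19 had a higher mean. Cd163, Mertk and Cd209b had a lower one, by log2 differences of -0.15, -0.12 and -0.01 (limma adjusted p = 0.484, 0.493 and 0.717). Itgax minus Csf1r was lower in every adrenalectomy sample, with a mean of -2.57 ± 0.10 against -2.35 ± 0.08 in sham samples (log2 values, SD, n = 4). The rise of Csf1r itself enters this difference, which was not tested. Macrophages carry Itgax and Irf8, and their part in the values of both genes was not tested. B cell and plasma cell markers, which share Irf4 and Irf8, had no called gene among 9 tested. All 9 had a higher mean after adrenalectomy, against 49.5% of all tested genes. Their mean log2 value ran from 6.30 to 6.37 in sham samples and from 6.39 to 6.57 after adrenalectomy. Summed linear values of the list overlapped between the groups (16933 to 18981 in sham samples, 17823 to 19263 after adrenalectomy). Sdc1, the highest of the list at a sham mean of 14.05, weighs most in these sums. Ms4a1 and Pax5 were below the filter on low values. T cell markers, which share Ccr7, had no called gene among 10 tested, and Cd3e, Cd3d and Cd3g were below the filter. Their median log2 difference was 0.04, with a higher mean in 8 and a lower one in Cd5 and Cd28. Summed linear values were 687 to 734 in sham samples and 745 to 758 after adrenalectomy. Tcf7 and Cd4, the highest of the list at sham means of 8.11 and 7.35, weigh most in these sums. Among the natural killer and innate lymphoid markers, with a median log2 difference of 0.04, Il2rb, a receptor chain for interleukin 2 and interleukin 15, had a sham mean of 5.95 and differed by 0.09 (limma adjusted p = 0.270).

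**Figure D5:**
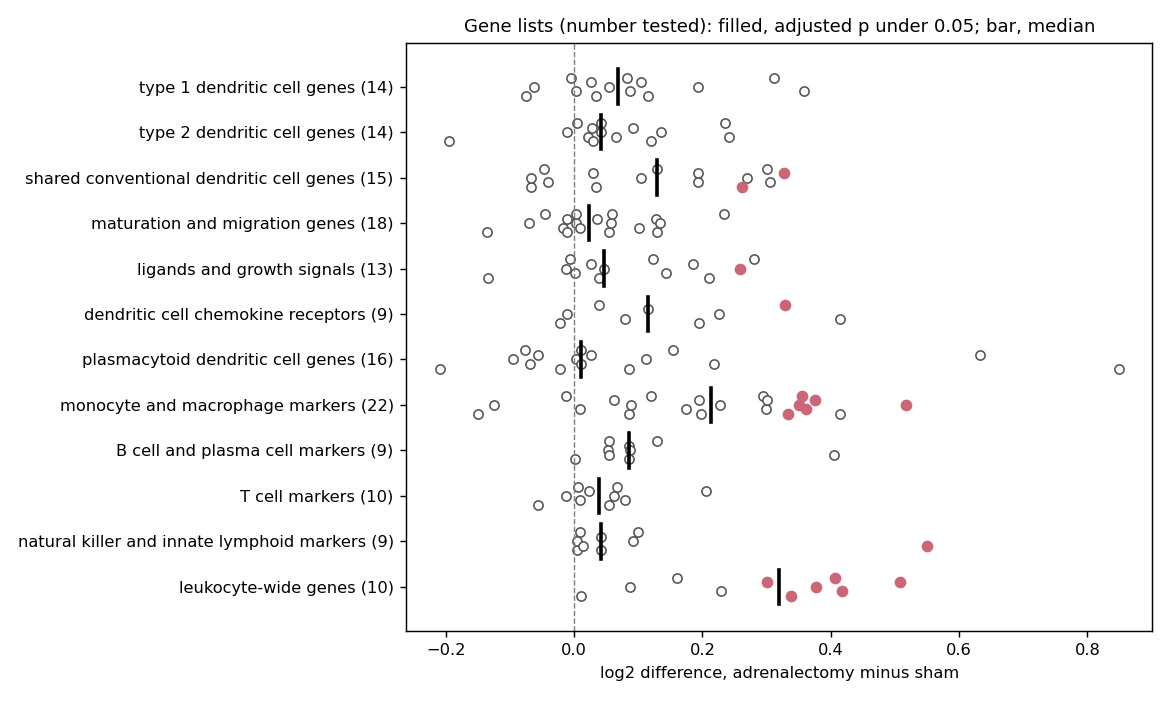
Log2 differences (horizontal axis, adrenalectomy minus sham) of the tested genes of 12 lists (vertical axis, number tested in brackets), filled where the limma adjusted p was under 0.05, with the median of each list as a bar. The leukocyte-wide list and the monocyte and macrophage list have medians of 0.32 and 0.21, and the type 1 and type 2 lists have medians of 0.07 and 0.04 and no filled point. The type 1 and type 2 lists include genes far above the members in level, such as Cd24a and Klf4.

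The wider lists of dendritic cell genes held the members and further genes. Some of these lay far above the members, with sham means of 16.79 for Cd24a in the type 1 list and 15.62 for Klf4 in the type 2 list. The part of dendritic cells in such values, and so in the list medians, was not tested. Of 14 tested type 1 genes none was called, 11 had a higher mean and the median log2 difference was 0.07. Wdfy4, which type 1 cells need for cross-presentation, went from 7.64 ± 0.11 to 7.95 ± 0.07 (log2 values, SD, n = 4; log2 difference 0.31, limma adjusted p = 0.0549), with no overlap between the groups. Over the 20 alternatives the adjusted p of Wdfy4 ran from 0.0435 to 0.328. It passed in 3 of them, with robust moderation (limma adjusted p = 0.0435), without the trend and with a filter at a mean of 100 (both limma adjusted p = 0.0483). Nfil3, a factor upstream of the type 1 fate that many cells use, differed by 0.36 (limma adjusted p = 0.0939). Of 14 tested type 2 genes none was called, 12 had a higher mean and the median was 0.04. Sirpa, the inhibitory receptor for CD47 that is also on macrophages, differed by 0.24 (limma adjusted p = 0.0841), the lectin gene Mgl2 by 0.24 (limma adjusted p = 0.116) and its relative Clec10a by 0.07 (limma adjusted p = 0.512).

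Of 15 tested genes that both types share, Ciita and Spi1 rose and none fell, with a median log2 difference of 0.13. Ciita, the switch for class II antigen presentation, stood at 7.48 ± 0.04 in sham samples and 7.81 ± 0.04 after adrenalectomy (log2 values, SD, n = 4; limma adjusted p = 0.0150). Spi1, which encodes PU.1, the factor that myeloid cells and both dendritic cell types require, went from 7.53 ± 0.03 to 7.79 ± 0.06 (log2 values, SD, n = 4; limma adjusted p = 0.0325). Csf2rb, the shared receptor chain for GM-CSF, interleukin 3 and interleukin 5, differed by 0.27 (limma adjusted p = 0.0615). Ciita lost its call without sham replicate 3, and Spi1 without any 1 of sham replicates 2, 3 and 4 or of the 4 adrenalectomy samples.

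Of 18 tested maturation and migration genes none was called, and the median log2 difference was 0.02. Ccl22, a chemokine that mature dendritic cells release to draw regulatory and helper T cells, went from 5.89 ± 0.03 to 6.03 ± 0.06 (log2 values, SD, n = 4; log2 difference 0.13, limma adjusted p = 0.0949), and Fscn1, the actin bundling protein of mature cells, differed by 0.23 (limma adjusted p = 0.136). Birc3, an inhibitor of cell death, lay lower by a log2 difference of -0.14 (limma adjusted p = 0.0827). Samsn1, an adaptor protein of activated leukocytes, differed by 0.10 (limma adjusted p = 0.0949). Il12a and Il12b were below the filter. Of 13 tested ligands and growth signals Tgfb1 rose, by 0.26 ± 0.04 SE (limma adjusted p = 0.0361), the adhesion molecule gene Icam1 differed by 0.21 (limma adjusted p = 0.0827), and Csf1, the ligand of Csf1r, differed by 0.28 (limma adjusted p = 0.121). Chemokine receptors of dendritic cells and monocytes had a median log2 difference of 0.12. The log2 differences were 0.42 for Cx3cr1, 0.23 for Ccr1 and 0.19 for Ccr2, with limma adjusted p-values of 0.0606, 0.0884 and 0.0890.

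Plasmacytoid dendritic cells, the interferon-producing relatives, had no called gene among 16 tested, with a median log2 difference of 0.01. Siglech, which marks these cells in the mouse, stood at 4.28 in both groups. Bst2 and Irf7, which many cells express under interferon, differed by 0.63 (limma adjusted p = 0.0615) and 0.85 (limma adjusted p = 0.0884). Tcf4, at a sham mean of 13.15, went the other way, with a log2 difference of -0.07 (limma adjusted p = 0.143). It was lower in every adrenalectomy sample than in any sham sample. Of the 16 genes, 10 had a higher mean after adrenalectomy. Cd207, the lectin of Langerhans cells that lie in squamous epithelium, was at 3.71 in sham samples and 3.75 after adrenalectomy, and was highest in adrenalectomy replicate 1.

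The 5 genes whose profile over the 8 samples, scaled to mean 0 and SD 1, lay closest to that of Itgax were Ptprc, Lpar6, H2-Aa, Ctss and Lrrc25, with root mean square distances of 0.20, 0.20, 0.22, 0.22 and 0.23. H2-Aa, a class II chain that dendritic cells, macrophages and B cells share, rose from 11.35 ± 0.07 to 11.89 ± 0.13 (log2 values, SD, n = 4; limma adjusted p = 0.0150). Ctss, which encodes the protease that trims the class II invariant chain, differed by 0.39 (limma adjusted p = 0.0534). These 5 share the samples of the comparison, and the distances are a description with no test.

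Outside the members, 17 genes of the leukocyte and dendritic cell lists were called, and the number was 0 with the replicate number as a block, with a covariate for squamous and muscle genes, without adrenalectomy replicate 1 and sham replicates 2 and 3 together, and without sham replicate 3. It was 3 without sham replicate 2, adrenalectomy replicate 2 or adrenalectomy replicate 4, and 5 without sham replicate 4, adrenalectomy replicate 1 or adrenalectomy replicate 3. Of the 20 alternatives, H2-Aa lost its call in 5, Csf1r in 9 and Tgfb1 in 13, and each kept its direction in all of them. Of the genes named above as not called, Ctss passed in 3 alternatives, Cx3cr1 and Ccr2 in 2 each and Csf2rb in 1.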

How the data were processed

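Total RNA of 8 stomach samples was sequenced. The submitters' processing notes name Trim Galore, STAR, featureCounts, DESeq2 and the build mm9. Their order, settings, annotation and strand: not given in the sources used here. Expression was deposited by the authors as log2 normalized values without counts, so depth is unknown. The transformation is not named; linear values are powers of 2 of the deposited values. Columns were matched to samples by their names, and 8 columns of other samples were not used. After 26 rows with dates for names were left out, genes with a mean linear value of at least 10 were tested (16889 genes, 7592 left out) using limma 3.58.1 (R 4.3.3; trend on, group the only term), two-sided, Benjamini-Hochberg adjusted over all tested genes, threshold 0.05. Intervals are at 95%. The code was tested on simulated data. The members and lists were chosen with earlier results of these data known. Named are all members, called list genes, otherwise up to 4 genes of each list with the smallest p, and the 5 profiles nearest to the member with the smallest p. The other lineage markers, ligands and genes below the filter were named after their values were seen. Some list genes are not reported here. Alternatives changed the filter, moderation, weights, scaling, pseudocount, block, covariates and samples. Motifs were searched in RefSeq windows of GRCm38.p6.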

Additional observations from a re-analysis of the deposited data

Results flagged for a closer look

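A value was looked at again where the highest or lowest of 4 samples stood apart from the rest of its group by more than Dixon's 95% critical share of the group's range. Of 58 groups examined, 4 were flagged, and chance flags about 1 in 20. Clec9a stood at 6.63 in sham replicate 4, against 6.47 in the next sham sample. The mean log2 value of the B cell and plasma cell markers was 6.567 in adrenalectomy replicate 2, against 6.419 in the next adrenalectomy sample. The mean log2 value of the T cell markers was 5.231 in adrenalectomy replicate 3, against 5.247 in the next. The mean log2 value of the liver genes was 11.59 in sham replicate 4, against 9.014 in the next sham sample, the widest gap of the 4 flagged groups for its range (0.97).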

How the results depend on the processing

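Over the 20 alternatives, the 10 members gave 193 values, of which 181 kept their direction and their side of the threshold, 2 passed it and 10 changed sign. The number of members called was 1 with robust moderation and with sample quality weights, Itgax in both, and 0 in the other 18. The median of the members was 0.19 with a filter at a mean of 100, which keeps only Itgax, Irf8 and Zbtb46.

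All genes called numbered 170 with no filter, 624 with sample quality weights, 156 with median centring, 4 with the replicate block, 113 with the liver score as a covariate, 0 with the covariate for squamous and muscle genes (2278 at an unadjusted p under 0.05 in limma) and 0 when adrenalectomy replicate 1 with sham replicates 2 and 3 were dropped (1822), and 27 to 633 with 1 replicate left out. The related genes called numbered 9 with no filter, 6 with the liver score and 0 with the replicate block, with the squamous and muscle covariate and without those 3 samples, and 0 to 20 with 1 replicate left out. The causes were not tested.

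Signs changed in values near 0. Irf4 was -0.0073 with median centring, -0.031 with the liver score, -0.026 without those 3 samples and -0.0161 to 0.0318 with 1 replicate left out. Clec9a was 0.0015 with quality weights and -0.0295 to 0.0391 with 1 replicate left out. Ccr7 was 0.0051 with the squamous and muscle covariate. Ccl19 was -0.019 with quality weights, -0.012 with median centring, -0.025 with the liver score, -0.011 without those 3 samples and -0.0167 to 0.0203 with 1 replicate left out. Fcer2a was -0.013 with quality weights, -0.00054 with quantile normalization, -0.011 with median centring and -0.0147 to 0.0245 with 1 replicate left out. Siglech was -0.0051 with quality weights, -0.0095 with median centring, -0.012 with the liver score, -0.0079 without those 3 samples and -0.0132 to 0.015 with 1 replicate left out. Cd207 was -0.00086 with the liver score.

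Whether the replicate numbers pair the samples is not stated. The deviations of same-numbered samples from their group means correlated at -0.29, 0.45, -0.12 and -0.63. Other tissue in the samples enters these deviations, so the correlations do not decide it. Itgax had a limma adjusted p of 0.15 with the replicate block. Depth is unknown, and small changes of genes of low value cannot be told from none on the deposited scale.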
